A study of Mus musculus with 9 samples.

Results

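The nuclear factor of activated T cells (NFAT) family was followed in mouse sclerotome cultures treated with a growth factor of the TGF-β superfamily. All probe sets that the probe-to-gene table assigns to the single gene symbols Nfatc1, Nfatc2, Nfatc3, Nfatc4 or Nfat5 were taken, each shown apart, which gave 5 genes of the 18193 with a probe set of 1 symbol, and 23 of the 45037 probe sets tested. Nfatc1 had 5 probe sets, Nfatc2 had 6, Nfatc3 had 2, Nfatc4 had 4 and Nfat5 had 6. None of the probe sets listed with several symbols included an NFAT gene.

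NFAT proteins are transcription factors that carry a calcium signal to the nucleus. When cytoplasmic calcium rises, calmodulin activates the phosphatase calcineurin, which strips phosphates from NFATc1, NFATc2, NFATc3 and NFATc4 so that they enter the nucleus, and kinases such as GSK3, DYRK and casein kinase send them back out. There they bind a short DNA core together with partners such as AP-1 or GATA factors. NFAT5 shares the DNA-binding domain but does not depend on calcineurin and is best known for its response to osmotic stress. In skeletal tissue NFATc1 is known as the factor that drives osteoclast differentiation, and in the embryo it is required in the endocardium for the heart valves. Arrays measure transcript abundance only, so the phosphorylation and location that set NFAT activity were not seen here.

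The cells came from the sclerotome, the ventral part of the somite that forms vertebrae and intervertebral discs, dissected from mouse E11.5 embryos after the notochord had been taken out. Mesenchymal cells were plated densely as micromass cultures in medium with serum, ascorbic acid and β-glycerolphosphate, and received TGF-β1 at 5 ng/ml, BMP4 at 50 ng/ml or neither for 8 h, with 3 Affymetrix mouse arrays in each of the 3 groups. Each array was made from 50 ng of total RNA after amplification, and the study describes its replicates as the whole experiment set up anew. P-values of the main fit therefore measure the spread between repeats. Fits given below with the replicate number as a block take differences between the numbers out of that spread. One protocol field puts the factors in the medium once the cells had attached and another after a night in culture, and which of these applies is not known.

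The deposited values were log2 signals from which each probe set's median over the 9 arrays had been taken away, so a value of 0 is that median and not absence. Differences between arrays are kept, but the level of a gene, and whether it stood above background, could not be read. Signals from whole cultures cannot tell fewer cells of a type from less RNA per cell. A probe set was called when its adjusted p was under 0.05 in limma's moderated test, with Benjamini-Hochberg adjustment over all 45037 probe sets. With 3 arrays against 3, an exact two-sided permutation test of a single probe set cannot go below p = 0.1, and the intervals are as wide as 3 arrays per group make them.

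TGF-β1 cultures had higher Nfatc1 signal than untreated cultures, BMP4 cultures had lower Nfatc4 signal at 1 probe set, and no probe set of Nfatc2, Nfatc3 or Nfat5 was called. Between TGF-β1 and untreated cultures 2 of the 23 NFAT probe sets were called, both higher and both of Nfatc1, where 4.43% of all probe sets were called and 1.83% were called higher. Between BMP4 and untreated cultures 1 of 23 was called, an Nfatc4 probe set that was lower, against 5.44% of all probe sets called and 3.13% called lower. Between TGF-β1 and BMP4 cultures 4 of 23 were called, all higher with TGF-β1, with 2 each of Nfatc1 and Nfatc4, against 6.91% of all probe sets called and 3.41% called higher. The untreated arrays serve both comparisons with a factor, so those comparisons are not independent of each other. All these counts come from a fit that leaves the replicate numbers of the labels out. With the numbers as a block, 5, 1 and 9 of 23 were called, against 8.95%, 9.03% and 11.7% of all probe sets.

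**Figure D1:**
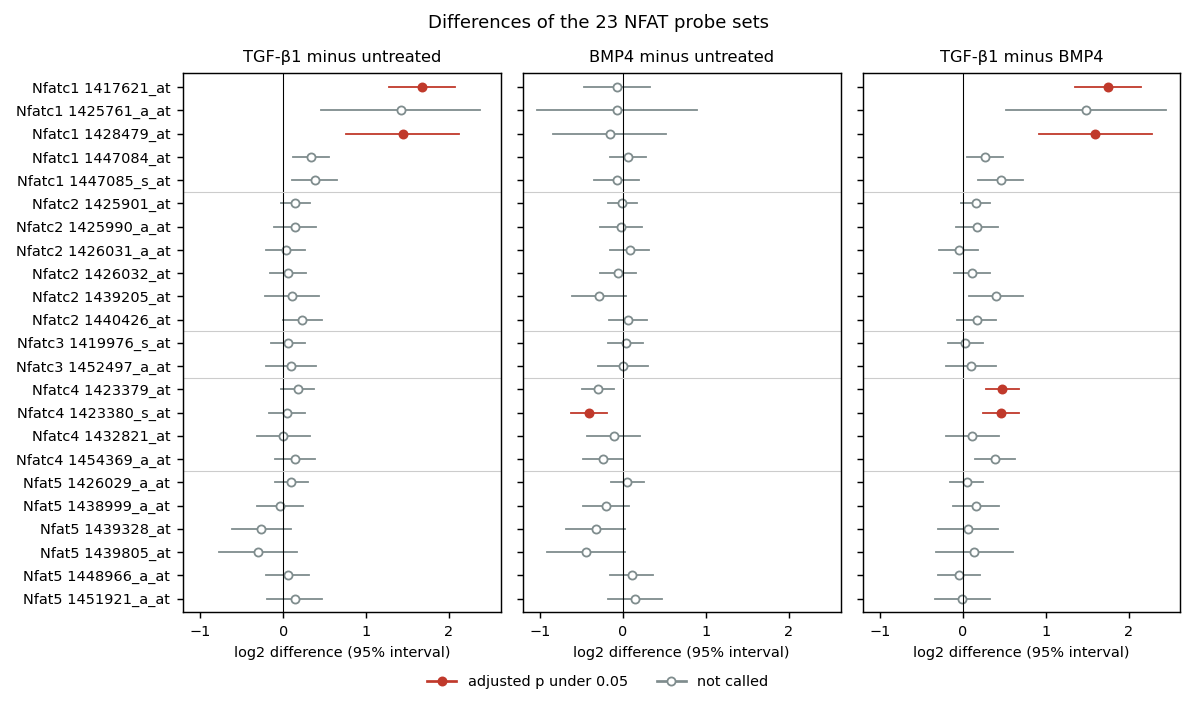
The 23 NFAT probe sets (rows) in 3 comparisons (panels), as log2 difference on the horizontal axis with the 95% interval of the limma fit as a line. Filled red points have an adjusted p under 0.05: 2 Nfatc1 probe sets for TGF-β1 minus untreated, 1 Nfatc4 probe set for BMP4 minus untreated, and 2 probe sets of each gene for TGF-β1 minus BMP4.

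The median difference of the 23 probe sets was 0.10 on the log2 scale for TGF-β1 minus untreated, against 0.01 over all probe sets, with 20 of 23 above 0. For BMP4 minus untreated the NFAT median was -0.07, against 0.001 over all probe sets, with 15 of 23 below 0. For TGF-β1 minus BMP4 it was 0.16, against 0.01 over all probe sets, with 20 of 23 above 0. The 23 probe sets belong to 5 genes, so these signs are not independent of each other. There was no overlap between arrays at 6 of 23 NFAT probe sets for TGF-β1 and untreated cultures (21.8% of all probe sets), at 2 of 23 for BMP4 and untreated cultures (20.0%) and at 10 of 23 for TGF-β1 and BMP4 cultures (25.5%). The first and second of these shares are near to or below that of all probe sets. Nfatc1 accounted for 5 of the 6 probe sets without overlap between TGF-β1 and untreated cultures.

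The Nfatc1 transcript was higher in TGF-β1 cultures at every one of its 5 probe sets, by 1.42 to 1.68 log2 units at 3 of them and by 0.33 and 0.38 at the others. At probe set 1417621_at the values were 1.33, 1.92 and 1.39 in TGF-β1 cultures, against -0.34, 0.17 and -0.23 in untreated cultures. The lowest TGF-β1 array stood above the highest untreated array by more than the spread within either group. The difference was 1.68 ± 0.18 (SE), a 3.20-fold higher signal (adjusted p = 0.000971, limma), and placed the probe set at rank 125 by p and rank 38 by difference among all 45037.

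Probe set 1428479_at gave 0.80, 1.51 and 0.83 in TGF-β1 cultures, against -0.68, 0.21 and -0.71 in untreated cultures. The groups again did not overlap, although the untreated array numbered 2 was much nearer to the TGF-β1 arrays than the others of its group. The difference was 1.44 ± 0.31 (SE), or 2.71-fold (adjusted p = 0.0283, limma). Probe set 1425761_a_at, whose name marks probes shared by several transcripts of the gene, gave 0.57, 1.93 and 0.35 in TGF-β1 cultures, against -1.21, 0.03 and -0.24 in untreated cultures. Its difference of 1.42 ± 0.43 was as wide as that of 1428479_at, but its arrays scattered more and it was not called (adjusted p = 0.105).

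The remaining Nfatc1 probe sets moved less. Probe set 1447084_at gave 0.19, 0.15 and 0.30 in TGF-β1 cultures, against -0.11, -0.23 and -0.02 in untreated cultures, a difference of 0.33 ± 0.10 (adjusted p = 0.0904). Probe set 1447085_s_at, of a kind whose probes can be shared between genes, gave 0.30, 0.55 and 0.17 in TGF-β1 cultures, against -0.20, 0.07 and 0.00 in untreated cultures, a difference of 0.38 ± 0.12 (adjusted p = 0.124). All 5 probe sets of Nfatc1 were thus without overlap, each at the smallest p that the exact permutation test allows (0.1), and all 5 had an unadjusted p under 0.05 in limma. Of all probe sets, 21.8% were without overlap in this comparison. The 5 probe sets read 1 gene on the same 9 arrays, so they are not separate results.

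**Figure D2:**
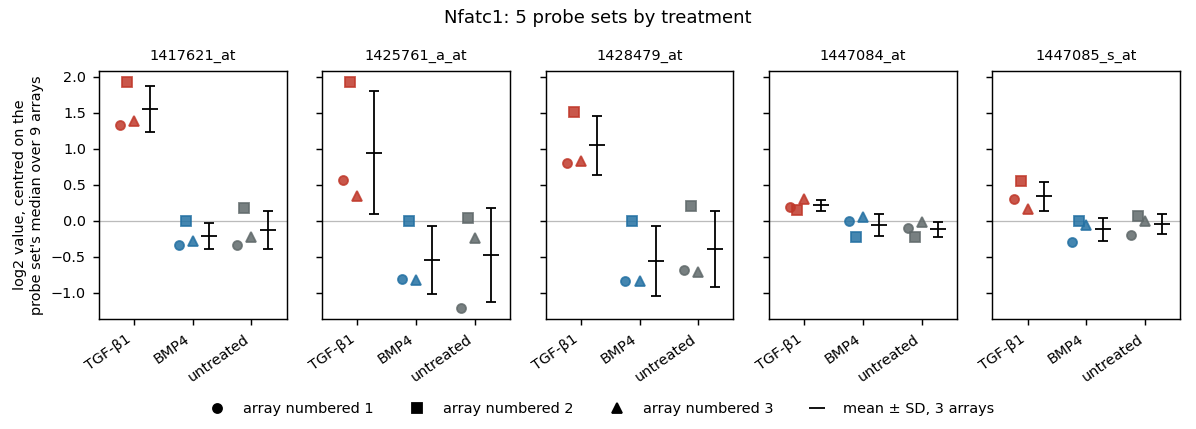
Each array's log2 value for the 5 Nfatc1 probe sets, centred on the probe set's median over 9 arrays (vertical axis), in TGF-β1, BMP4 and untreated cultures; point shapes give the array's number and black bars the mean ± SD of 3 arrays. TGF-β1 arrays lay above both other groups at every probe set, and the array numbered 2 was the highest of each group at 4 of the 5.

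Arrays that shared a replicate number tended to deviate together, and for Nfatc1 this was plain to see. The array numbered 2 was the highest in each of the 3 groups at 4 of the 5 probe sets, the exception being 1447084_at. Within the numbers, the TGF-β1 minus untreated difference at 1417621_at was 1.67, 1.75 and 1.62 for numbers 1, 2 and 3. At 1428479_at it was 1.48, 1.30 and 1.54, and at 1425761_a_at it was 1.77, 1.89 and 0.58. All 5 probe sets were higher with TGF-β1 in each of the 3 numbers.

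With the replicate number as a block in the same limma model, all 5 Nfatc1 probe sets were called higher in TGF-β1 than in untreated cultures, so that the count over the NFAT family was 5 in place of 2. The block called 8.95% of all probe sets in this comparison. The adjusted p with the block was 0.00765 at 1425761_a_at, 0.0218 at 1447084_at and 0.0347 at 1447085_s_at. The mean of the 5 probe sets, fitted as 1 value among 18193 genes, was higher by 1.05 ± 0.19 (SE), or 2.07-fold (adjusted p = 0.00892). The call at 1417621_at held when any 1 of the 9 arrays was left out (adjusted p 0.00129 to 0.00619). The call at 1428479_at was lost without any 1 of the TGF-β1 arrays or without untreated replicate 1 or 3 (adjusted p 0.0646 to 0.103).

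In BMP4 cultures Nfatc1 read much as in untreated cultures, and no probe set was called. At 1417621_at the BMP4 arrays read -0.34, 0.00 and -0.28, against -0.34, 0.17 and -0.23 in untreated cultures. At 1428479_at they read -0.83, 0.00 and -0.83, against -0.68, 0.21 and -0.71 in untreated cultures. The BMP4 and untreated arrays overlapped at all 5 probe sets, with differences between -0.16 and 0.06 and adjusted p between 0.842 and 0.967 (limma), and none of the 5 had an unadjusted p under 0.05. At 1417621_at the difference was -0.08 with a 95% interval of -0.47 to 0.32, and at 1425761_a_at the interval was as wide as -1.04 to 0.89.

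Set directly against each other, at 5 and 50 ng/ml, TGF-β1 cultures had more Nfatc1 signal than BMP4 cultures. At 1417621_at the difference was 1.75 ± 0.18 (SE), 3.37-fold (adjusted p = 0.000359), and at 1428479_at it was 1.60 ± 0.31, 3.03-fold (adjusted p = 0.0115). The other probe sets gave 1.49 ± 0.43 at 1425761_a_at (adjusted p = 0.0739), 0.46 ± 0.12 at 1447085_s_at (adjusted p = 0.0548) and 0.27 ± 0.10 at 1447084_at (adjusted p = 0.142). All 5 were without overlap, and all 5 were called with the replicate block, where the adjusted p of those 3 was 0.00385, 0.0126 and 0.0376. Of all probe sets, 25.5% were without overlap here and 11.7% were called with the block. Over the mean of its probe sets Nfatc1 was higher by 1.11 ± 0.19 (adjusted p = 0.00382). The call at 1428479_at was lost without BMP4 replicate 1 (adjusted p = 0.0553).

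Nfatc1 was among the more variable transcripts of the series, where the spread over the 9 arrays includes the TGF-β1 difference given above. The SD of its 3 strongest probe sets over the 9 arrays lay at percentiles 99.6 to 99.7 of all probe sets, against 67.5 for 1447084_at and 85.3 for 1447085_s_at. Among the probe sets of the other NFAT genes the highest such percentile was 92.7, for Nfat5 at 1439805_at. Over the 9 arrays, which share the same 3 treatments and 3 replicate numbers, the 10 pairs of Nfatc1 probe sets correlated with r between 0.42 and 0.97.

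Nfatc4, a calcineurin-dependent member that is expressed widely outside the immune system, had a lower signal in BMP4 cultures than in untreated cultures at 1 of its 4 probe sets. At 1423380_s_at the values were -0.37, -0.45 and -0.19 in BMP4 cultures, against 0.09, 0.16 and -0.02 in untreated cultures. The groups did not overlap, and the difference of -0.41 ± 0.10 (SE) was a 1.33-fold lower signal (adjusted p = 0.0376, limma). At 1423379_at the values were -0.29, -0.44 and -0.16 in BMP4 cultures, against 0.00, 0.00 and 0.02 in untreated cultures. These did not overlap either, but the difference of -0.30 ± 0.09 was not called (adjusted p = 0.089).

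At 1454369_a_at the BMP4 arrays read -0.15, -0.26 and -0.31, against -0.20, 0.12 and 0.10 in untreated cultures, and the difference of -0.25 ± 0.11 was not called (adjusted p = 0.277). At 1432821_at the difference was -0.11 ± 0.14, and untreated replicate 3, at 0.48, stood alone above the other arrays. Fitted as 1 mean per gene, Nfatc4 was lower in BMP4 cultures by -0.27 ± 0.07, or 1.20-fold (adjusted p = 0.0414). The call at 1423380_s_at was lost without BMP4 replicate 1 or 2, untreated replicate 1 or 2 or TGF-β1 replicate 1 (adjusted p 0.0631 to 0.141), and in a fit of the BMP4 and untreated arrays alone (adjusted p = 0.0658). Its name marks probes that can be shared between genes.

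**Figure D3:**
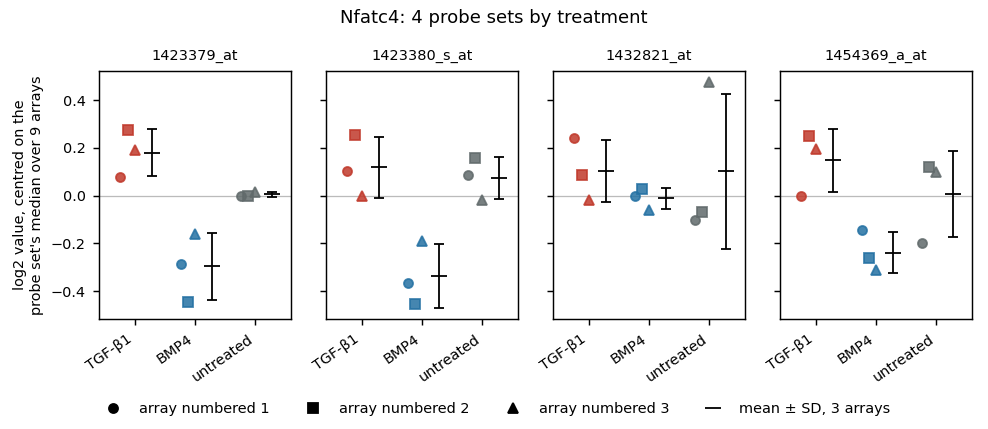
Each array's log2 value for the 4 Nfatc4 probe sets, centred on the probe set's median over 9 arrays (vertical axis), in TGF-β1, BMP4 and untreated cultures; point shapes give the array's number and black bars the mean ± SD of 3 arrays. BMP4 arrays lay below all TGF-β1 arrays at 3 probe sets, and at 1432821_at untreated replicate 3 stood above all others.

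In TGF-β1 cultures the Nfatc4 probe sets read close to untreated ones, with differences of 0.00 to 0.18 and adjusted p of 0.328 to 0.996. At 1423379_at all TGF-β1 arrays still lay above all untreated arrays, with a difference of 0.18 ± 0.09 that was not called (adjusted p = 0.328, limma). The distance between the treatments was wider. At 1423379_at the values were 0.08, 0.27 and 0.19 in TGF-β1 cultures, against -0.29, -0.44 and -0.16 in BMP4 cultures, a difference of 0.48 ± 0.09 (SE), or 1.39-fold (adjusted p = 0.0102). At 1423380_s_at the TGF-β1 arrays read 0.10, 0.25 and 0.00, against -0.37, -0.45 and -0.19 in BMP4 cultures, a difference of 0.46 ± 0.10, or 1.37-fold (adjusted p = 0.0199).

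At 1454369_a_at the difference between TGF-β1 and BMP4 cultures was 0.39 ± 0.11 (adjusted p = 0.0612, and 0.04 with the replicate block). At 1432821_at it was 0.12 ± 0.14 (adjusted p = 0.718). With the block the count over the NFAT family in this comparison was 9 in place of 4, made up of 5 Nfatc1, 3 Nfatc4 and 1 Nfatc2 probe sets. The call at 1423379_at held when any 1 array was left out, and that at 1423380_s_at was lost without TGF-β1 replicate 1 or 2 or BMP4 replicate 1 or 2 (adjusted p 0.0583 to 0.0829). Without the 3 arrays numbered 2, neither Nfatc4 probe set was called (adjusted p = 0.113 and 0.176), and the NFAT count was 2.

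Because Nfatc4 differed between the treatments, its promoter is shown, from RefSeq sequence of build GRCm38.p6: the 250 bases before the annotated start, chr14:55824545-55824794, plus strand. Capitals mark each GGAAA, the NFAT core, on either strand, where TTTCC is its reverse complement.
Nfatc4 promoter: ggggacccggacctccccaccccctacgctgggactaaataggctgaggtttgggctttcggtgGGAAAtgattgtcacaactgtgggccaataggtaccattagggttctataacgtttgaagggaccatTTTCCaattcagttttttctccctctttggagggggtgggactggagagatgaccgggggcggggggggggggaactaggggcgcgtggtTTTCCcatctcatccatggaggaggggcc

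This stretch held 3 GGAAA cores, whose first bases on the plus strand lie 186, 119 and 29 bases before the start. Searches on both strands for CAGAC, the core that Smad proteins bind, and for GGCGCC, a GC-rich element bound by Smads of the BMP pathway, found neither set of letters in it. Of 32851 promoter stretches of the same length, 55.6% held GGAAA, 42.2% held CAGAC and 9.59% held GGCGCC; none of the 3 motifs contains another, and GGCGCC reads the same on both strands. Promoters were read for 4 of the 5 genes, 6 in all, and Nfatc1 was left out of this reading beforehand. Of the pair of Nfatc2 promoters, 1 held GGAAA once, CAGAC 3 times and GGCGCC 2 times, and the other held GGAAA 3 times and neither of the others. Of the pair of Nfatc3 promoters, 1 held GGAAA once and CAGAC 3 times and the other held no match, and the Nfat5 promoter held GGAAA 2 times only. A match describes the letters and is not a site shown to be bound.

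Nfatc2, Nfatc3 and Nfat5 had 14 probe sets, and limma called none of them in any of the 3 comparisons. Nfatc2 and Nfatc3 are calcineurin-dependent members best known from lymphocytes, and Nfatc2 has also been studied in cartilage. For TGF-β1 minus untreated, the 14 differences ran from -0.31 to 0.23 (smallest adjusted p = 0.274), and the 95% intervals reached no further than -0.78 and 0.47. For BMP4 minus untreated they ran from -0.45 to 0.14 (smallest adjusted p = 0.322), with intervals within -0.92 and 0.48. Neither comparison had an unadjusted p under 0.05 among the 14, whether by limma or by the unequal-variance test that the methods name.

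For TGF-β1 minus BMP4 the 14 differences ran from -0.05 to 0.40, with intervals within -0.34 and 0.72, and 1 of the 14 had an unadjusted p under 0.05 (2 by the unequal-variance test). That probe set was 1439205_at of Nfatc2, which gave 0.15, 0.37 and 0.23 in TGF-β1 cultures, against -0.29, -0.01 and -0.13 in BMP4 cultures. The groups did not overlap, and the difference of 0.40 ± 0.15 was not called (adjusted p = 0.158, and 0.0312 with the replicate block). Its untreated arrays read 0.00, 0.51 and -0.06, so that replicate 2 lay above all TGF-β1 and BMP4 arrays. The other Nfatc2 probe sets differed between TGF-β1 and untreated cultures by 0.15 at 1425901_at, 0.14 at 1425990_a_at, 0.03 at 1426031_a_at, 0.06 at 1426032_at and 0.23 at 1440426_at. Between BMP4 and untreated cultures these 5 differed by -0.06 to 0.08, and between TGF-β1 and BMP4 cultures by -0.05 to 0.17.

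Nfat5, the osmotic stress factor, had overlapping groups at all 6 probe sets in all 3 comparisons. At 1439805_at, its most variable probe set, the values were -0.63, -0.49 and 0.18 in BMP4 cultures and -0.50, -0.03 and 0.01 in TGF-β1 cultures, against 0.36, 0.00 and 0.05 in untreated cultures. The differences from untreated were -0.45 ± 0.21 with BMP4 (adjusted p = 0.322) and -0.31 ± 0.21 with TGF-β1 (adjusted p = 0.478). Of its 6 probe sets, 3 were above 0 and 3 below 0 in each comparison with untreated cultures. The pairs of Nfat5 probe sets correlated with r between -0.44 and 0.95 over the 9 arrays. Its other probe sets differed between TGF-β1 and untreated cultures by 0.10 at 1426029_a_at, -0.04 at 1438999_a_at, -0.26 at 1439328_at, 0.05 at 1448966_a_at and 0.14 at 1451921_a_at. Between BMP4 and untreated cultures these 5 differed by -0.33 to 0.14. Nfatc3 had differences of 0.00 to 0.10 over the 3 comparisons at its 2 probe sets, 1419976_s_at and 1452497_a_at.

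Of 57 further genes listed for the calcineurin-NFAT pathway, 49 were matched to a probe set, and each was read from its probe set of largest variance. TGF-β1 cultures differed from untreated ones at 2 of the 49 (4.08%), where 6.75% of all genes read in this way were called. BMP4 cultures differed from untreated ones at 8 of 49 (16.3%), with 4 higher and 4 lower, against 7.96% of all genes. TGF-β1 and BMP4 cultures differed at 6 of 49 (12.2%), with 2 higher and 4 lower in TGF-β1 cultures, against 10.1% of all genes. With the replicate block the first count was 4, as Orai2, a calcium entry channel, and Slc5a3, the myo-inositol transporter, were then lower (adjusted p = 0.0486 and 0.0142). In the third comparison the block added Rcan2, Homer3 and Trpc6, which were then higher in TGF-β1 than in BMP4 cultures (adjusted p = 0.00468, 0.0424 and 0.0414).

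Calcineurin, the phosphatase itself, came next. None of its 5 subunit genes was called against untreated cultures with either factor, with 1 at an unadjusted p under 0.05 for TGF-β1 and 0 for BMP4. Ppp3ca, a catalytic subunit, was lower in TGF-β1 than in BMP4 cultures, by -0.31 ± 0.08 (adjusted p = 0.0487). None of 11 genes for kinases that act on NFAT was called in any comparison, with 3, 4 and 1 at an unadjusted p under 0.05 for TGF-β1 minus untreated, BMP4 minus untreated and TGF-β1 minus BMP4. Rcan1 is a calcineurin inhibitor whose own transcription is widely used as a readout of NFAT activity. Its signal differed by 0.05 ± 0.16 between TGF-β1 and untreated cultures (adjusted p = 0.905). The name of the probe set read for Rcan1 marks probes shared by several transcripts of the gene. The value is therefore for those transcripts together, and NFAT activity was not tested.

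Among 8 regulators and anchors of calcineurin, 3 were lower in BMP4 than in untreated cultures (37.5%, against 7.96% of all genes called). Rcan2, an inhibitor related to Rcan1, read -0.56, -1.78 and -0.78 in BMP4 cultures, against 0.75, 0.08 and 0.41 in untreated cultures, a difference of -1.45 ± 0.32 (adjusted p = 0.0256). Rcan3, of the same family, was lower by -0.45 ± 0.09 (adjusted p = 0.0188). Homer2, a scaffold that competes with calcineurin for NFAT in T cells, read -0.71, -0.65 and -0.58 in BMP4 cultures, against 0.08, 0.00 and -0.13 in untreated cultures, a difference of -0.63 ± 0.09 (adjusted p = 0.00265). In TGF-β1 cultures the called member was Fkbp1a, the binding protein of the calcineurin-blocking drug FK506, which was higher by 0.35 ± 0.07 (adjusted p = 0.0291). It was 1 of the 8 (12.5%, against 6.75% of all genes called).

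Genes of calcium release and entry included 2 of 11 that were higher in BMP4 than in untreated cultures (18.2%, against 7.96% of all genes called). Stim2, a sensor of calcium in the endoplasmic reticulum, was higher by 0.46 ± 0.07 (adjusted p = 0.00446), and Trpc1, a cation channel, by 0.75 ± 0.12 (adjusted p = 0.0052). Both were lower in TGF-β1 than in BMP4 cultures, by -0.56 ± 0.07 and -0.74 ± 0.12 (adjusted p = 0.0012 and 0.00452). Of 9 nuclear partners, Gata6, a zinc finger factor that works with NFATc1 in vascular smooth muscle, read 1.51, 1.05 and 1.44 in BMP4 cultures, against -0.16, -0.38 and 0.29 in untreated cultures. Its difference was 1.41 ± 0.18, or 2.66-fold (adjusted p = 0.00159), whereas its TGF-β1 arrays read 0.00, -0.29 and -0.09. Gata6 was the only call of the 9 between BMP4 and untreated cultures (11.1%, against 7.96% of all genes).

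Among 5 osmotic target genes of NFAT5, Slc6a6, the taurine transporter, was higher with both factors, by 0.60 ± 0.10 in TGF-β1 cultures (adjusted p = 0.0105) and by 0.61 ± 0.10 in BMP4 cultures (adjusted p = 0.00708), each against the same untreated arrays. Hspa4l, a chaperone induced by osmotic stress, was lower in BMP4 than in untreated cultures by -0.65 ± 0.15 (adjusted p = 0.03) and higher in TGF-β1 than in BMP4 cultures by 1.05 ± 0.15 (adjusted p = 0.002). Homer2 likewise was higher in TGF-β1 than in BMP4 cultures, by 0.88 ± 0.09 (adjusted p = 0.000293).

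**Figure D4:**
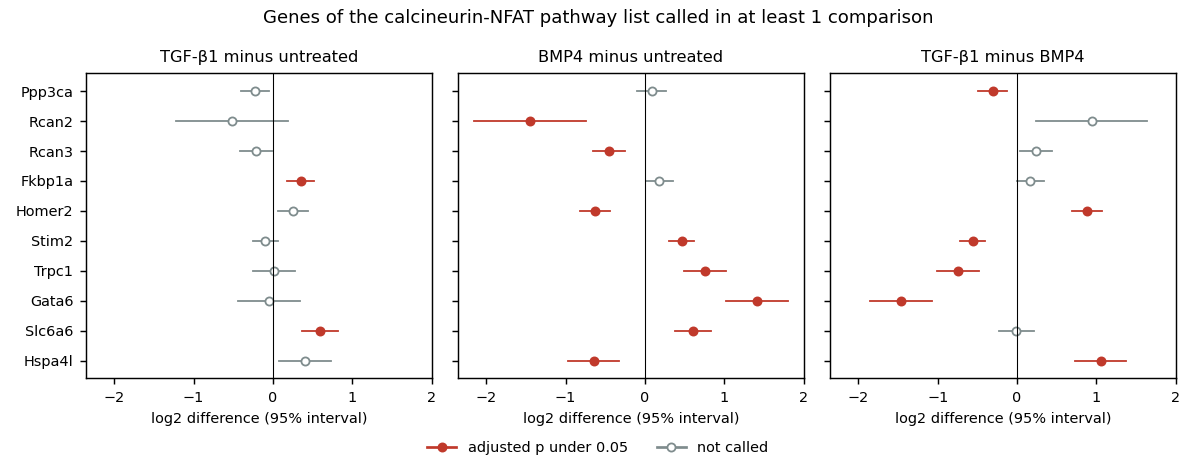
The 10 genes of the calcineurin-NFAT pathway lists that were called in at least 1 of 3 comparisons (panels), as log2 difference on the horizontal axis with the 95% interval as a line. Filled red points have an adjusted p under 0.05: Fkbp1a and Slc6a6 for TGF-β1 minus untreated, and 8 genes for BMP4 minus untreated, 4 on each side of 0.

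Because Nfatc1 is known from endothelial cells, osteoclasts and lymphocytes, markers of these cells were read beside it. None of 8 endothelial markers was called in any comparison, with 0, 1 and 0 at an unadjusted p under 0.05. The 1 was Kdr, higher in BMP4 than in untreated cultures by 0.49 (adjusted p = 0.224, and 0.0205 with the replicate block). The mean over the list ran from -0.04 to -0.02 in TGF-β1 arrays, -0.01 to 0.04 in BMP4 arrays and -0.05 to 0.11 in untreated arrays. Of 10 macrophage and osteoclast markers, 1 (10%) was called between TGF-β1 and untreated cultures, where 6.75% of all genes were called. Cd68, a lysosomal protein of macrophages, was lower by -0.46 ± 0.09 (adjusted p = 0.019). In that comparison 3 of the 10 had an unadjusted p under 0.05, and the other two had positive differences and were not called: 0.32 ± 0.12 for Oscar, an osteoclast receptor (adjusted p = 0.186, no overlap between the groups), and 0.25 ± 0.11 for Ptprc, the leukocyte antigen CD45 (adjusted p = 0.264). The list's mean ran from -0.04 to 0.08 in TGF-β1 arrays, -0.13 to -0.09 in BMP4 arrays and 0.03 to 0.11 in untreated arrays. Ctsk, the osteoclast protease cathepsin K and a target of NFATc1, read 0.18, -0.02 and 0.34 in TGF-β1 cultures and -0.82, -0.98 and -1.10 in BMP4 cultures, against 0.00, 0.15 and 0.00 in untreated cultures. It was lower in BMP4 than in untreated cultures by -1.02 ± 0.11 (adjusted p = 0.000737). This was the only call among the 10 markers in that comparison (10%, against 7.96% of all genes). The other markers differed by -0.18 to 0.17, and the list's median was -0.13. The low BMP4 values of Ctsk enter the list's mean given above. Between TGF-β1 and BMP4 cultures Ctsk was higher by 1.13 ± 0.11 and Cd68 lower by -0.38 ± 0.09 (adjusted p = 0.000274 and 0.0316). These were 20% of the list, against 10.1% of all genes. None of 3 lymphocyte markers was called, with 0, 0 and 2 at an unadjusted p under 0.05, and with the replicate block Cd3g was higher in TGF-β1 than in BMP4 cultures (adjusted p = 0.0329). Whether any of these cells was present could not be read from centred values.

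Markers of other cell types were called too. Of 7 sclerotome markers, 4 were lower in BMP4 than in untreated cultures (Pax1, Meox1, Twist1 and Uncx), or 57.1%, against 7.96% of all genes called. The others were not called there: Pax9 differed by -0.39, Foxc2 by 0.30 and Nkx3-2 by 0.22 (adjusted p = 0.357, 0.206 and 0.601, limma). The groups did not overlap for Foxc2. Between TGF-β1 and untreated cultures 0 of the 7 were called, and 2 had an unadjusted p under 0.05. The mean of that list ran from -0.04 to 0.18 in TGF-β1 arrays, -0.53 to -0.48 in BMP4 arrays and 0.00 to 0.48 in untreated arrays. Between TGF-β1 and BMP4 cultures 4 of the 7 were called (57.1%, against 10.1% of all genes). Meox1 was higher by 2.14 ± 0.13, Uncx by 0.94 ± 0.14 and Twist1 by 0.70 ± 0.09, and Foxc2 was lower by -0.46 ± 0.12 (adjusted p = 2.37e-05, 0.00295, 0.0013 and 0.0394). Krt19, 1 of 3 notochord markers, was higher with TGF-β1 by 1.68 ± 0.35 and with BMP4 by 1.61 ± 0.35 (adjusted p = 0.0267 and 0.0264). That is 33.3% of the list each time, against 6.75% of all genes for TGF-β1 and 7.96% for BMP4. The other notochord markers were not called: Shh differed by 0.11 and 0.12, and Foxa2 by 0.04 and 0.01. Myf5 was higher with BMP4 by 0.83 ± 0.11 (adjusted p = 0.00206), the only 1 of 6 muscle markers called there (16.7%, against 7.96% of all genes). The other muscle markers had BMP4 minus untreated differences of -0.23 to 0.02, none called, and the list's median was -0.12. The mean of the muscle list ran from -0.34 to -0.07 in TGF-β1 arrays, -0.02 to 0.14 in BMP4 arrays and 0.02 to 0.09 in untreated arrays, and Myf5 was lower in TGF-β1 than in BMP4 cultures by -1.25 ± 0.11 (adjusted p = 0.000142). None of 4 neuron markers was called. With the replicate block, Pax1, Myod1 and Myf5 were also called lower in TGF-β1 than in untreated cultures (adjusted p = 0.026, 0.0329 and 0.00936), and between TGF-β1 and BMP4 cultures the block added Pax1 and Pax9 as higher and Pax3 and Elavl4 as lower. Between BMP4 and untreated cultures it added Pax9 as lower and Elavl4 as higher (adjusted p = 0.0136 and 0.00606). The part of these shifts in the Nfatc1 and Nfatc4 differences was not tested.

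The genes whose arrays ran most like Nfatc1 were ranked by Pearson r over the 9 arrays, among 2112 genes with a range of at least 1 log2 unit. The 9 arrays share 3 treatments and 3 replicate numbers, so r reflects both and is given as a description. Against 1425761_a_at, the Nfatc1 probe set of largest variance, the nearest were Lox (r = 0.947), the lysyl oxidase that crosslinks collagen, Acly (0.943), which makes acetyl-CoA from citrate, Fam210b (0.936), Cyp26a1 (0.933), which breaks down retinoic acid, and Srebf1 (0.92), a regulator of lipid synthesis. The farthest were Tcim (-0.954) and Mapk10 (-0.952), the kinase JNK3. Of these, Lox and Fam210b were higher in TGF-β1 than in untreated cultures, by 1.65 ± 0.27 and 0.88 ± 0.19 (adjusted p = 0.00901 and 0.0291). Acly, Cyp26a1 and Srebf1 were not called (adjusted p 0.145 to 0.3). Choosing genes by likeness to Nfatc1, which was higher in TGF-β1 arrays, favours such differences, so they are no separate result.

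A second ranking against 1417621_at, chosen after its values were seen because it had the smallest p, gave Htra3 (r = 0.991), a secreted serine protease, Adamtsl2 (0.983), a matrix protein bound to fibrillin microfibrils, Gpat3 (0.983), which acts in triglyceride synthesis, Rgcc (0.978) and again Lox (0.977). All 5 were higher in TGF-β1 than in untreated cultures, by 1.52 for Htra3, 2.13 for Adamtsl2, 2.84 for Gpat3, 1.79 for Rgcc and 1.65 for Lox. None was called between BMP4 and untreated cultures (adjusted p 0.0725 to 0.959). The genes were picked for likeness to a probe set that was high in TGF-β1 arrays only. These differences therefore follow from the choice and are no separate result. The farthest were Crybg3 (r = -0.966) and Parvb (-0.963), a focal adhesion protein. Lox was the gene among the nearest 5 of both rankings.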

How the data were processed

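The authors hybridised RNA of 9 cultures (3 per group) to 1-colour arrays and, per the submitters' notes and the methods, normalized with RMA (version not given in the sources used here). What they deposited is log2 signal. Of 45101 deposited probe sets, all had a median of 0 over the arrays (tolerance 1e-06), and 64 controls were left out. No further scaling or signal filter was applied, and 0 other per-sample columns were found. Symbols came from a platform annotation: 34945 probe sets had 1 symbol, 932 several and 9160 none.

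One limma 3.58.1 model (R 4.3.3) of 3 group means gave the 3 contrasts, two-sided, tested beforehand on simulated data. Every NFAT probe set is named, with each pathway gene called (at most 5 per list), and the 5 genes nearest to and 2 farthest from Nfatc1. Members and lists were chosen with earlier results of these data known. Replicate numbers were checked as pairs: correlations of deviations from group means were 0.14 to 0.49 for TGF-β1 and untreated arrays and 0.29 to 0.50 for TGF-β1 and BMP4 arrays, which was taken as pairing, but -0.05 to 0.50 for BMP4 and untreated arrays, which was not. Within a group the deviations cancel out, so the correlations of the numbers are not independent checks. Mismatched numbers were not compared, and the labels do not say that a number marks a repeat. The main fit left the numbers out in every comparison, and counts with the block are given beside it. Alternatives covered array centring, quantile normalization, a fit of the compared groups alone, the block, robust moderation, adjustment over probe sets with 1 symbol, 1 array left out, the arrays numbered 2 left out, gene means, and the unequal-variance test of the methods. Figures used matplotlib 3.10.9.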

Additional observations from a re-analysis of the deposited data

How the results depend on the processing

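For NFAT probe sets called between TGF-β1 and untreated cultures (2), the count was 5 with the replicate block, 0 by the methods' unequal-variance test after Benjamini-Hochberg (at its unadjusted p under 0.05 alone it gave 3, 1 and 8 in the 3 comparisons), and 1 to 2 with 1 array left out. That test called 0, 0 and 11 of 45037 probe sets in the 3 comparisons. For BMP4 and untreated cultures (1), it was 0 in a fit of the 2 groups alone, 0 without the 3 arrays numbered 2, 0 by the methods' test after adjustment and 0 at its unadjusted p with 2-fold change, 1 with the block (which there also called the markers Pax9, Kdr and Elavl4), and 0 to 1 with 1 array left out. For TGF-β1 and BMP4 cultures (4), it was 9 with the block, 2 without the arrays numbered 2, 0 and 2 by the methods' test in the same 2 forms, and 2 to 5 with 1 array left out. Over all probe sets the block raised the calls to 4029, 4069 and 5252, where the fit without it gave 1993, 2449 and 3110, and it changed no other call among the NFAT, pathway and marker genes than those named here and above.

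Pathway genes called between TGF-β1 and untreated cultures (2) were 1 in the fit of the groups alone, 4 with the block, 0 without the arrays numbered 2, 0 by the methods' test in both forms, 1 by gene means and 1 to 3 with 1 array left out. Between BMP4 and untreated cultures (8) they were 5 in the fit of the groups alone, 5 without the arrays numbered 2, 0 and 2 by the methods' test and 5 to 9 with 1 array left out, and between TGF-β1 and BMP4 cultures (6) they were 0 and 2 by the methods' test, 10 by gene means and 5 to 6.

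No called NFAT difference changed sign. Of the 14 uncalled probe sets of Nfatc2, Nfatc3 and Nfat5, 8, 6 and 8 changed sign in at least 1 alternative in the 3 comparisons. Among uncalled ones of Nfatc1 and Nfatc4, quantile normalization turned Nfatc4 1432821_at to -0.046 (TGF-β1 minus untreated) and Nfatc1 1425761_a_at to 0.30 (BMP4 minus untreated), and dropping the arrays numbered 2 turned Nfatc4 1432821_at to -0.0748 (TGF-β1 minus untreated). With 1 array left out, TGF-β1 minus untreated ran from -0.10 to 0.19 at Nfatc4 1432821_at and -0.0238 to 0.10 at 1423380_s_at. BMP4 minus untreated ran from -0.18 to 0.0753 at Nfatc1 1417621_at, -0.44 to 0.18 at 1425761_a_at, -0.44 to 0.14 at 1428479_at, -0.15 to 0.0137 at 1447085_s_at and -0.22 to 0.0741 at Nfatc4 1432821_at. The causes were not tested. Robust moderation changed no NFAT call. Centring each array on its median gave the same values as before, so it could change nothing and says nothing of stability. Signal over background could not be judged, and groups of 3 arrays set the size of every interval.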
